A study of Mus musculus with 18 samples.

Results

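The genes described here encode the subunits, activators and assembly chaperones of the proteasome, including the 3 catalytic subunits of the immunoproteasome, Psmb8, Psmb9 and Psmb10. They were chosen by name, as every gene whose whole symbol is Psma, Psmb, Psmc, Psmd, Psme or Psmg followed by a number. This gave 47 of the 22909 gene symbols of the array annotation. Each gene was read from the transcript cluster, the set of probes for 1 gene, that had the highest mean signal over the arrays. The values are signals on a linear scale in RMA units, and differences are given on the log2 scale with their standard error.

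RNA was measured on Affymetrix Mouse Gene 1.0 ST arrays, 18 in all, with 6 groups of 3. The groups are glomerular endothelial cells, mesangial cells and podocytes of mice aged 5 weeks that either lacked Cd2ap (Cd2ap-/-, called mutant), a model of focal segmental glomerulosclerosis, or were wild type. Each cell type was taken by FACS from mice carrying its own GFP reporter transgene, among them Tie2-GFP for endothelial cells and Meis1-GFP for mesangial cells. Cell type and reporter line therefore cannot be told apart, whereas mutant and wild type cells of a type carried the same reporter. The mutant allele was that of the B6.129X1-Cd2ap tm1Shaw/J line in all mutant groups. The names of the mesangial control columns hold a plus followed by a minus, so these controls, wild type by the sample records, may carry 1 mutant allele. The study calls its replicates independent and biological, but the sample records name no animals, so the p-values measure the spread between these samples. Letters A, B and C name a group's arrays by column position and mean nothing else.

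The proteasome degrades proteins tagged with ubiquitin. Its 20S core is a barrel of alpha and beta rings, and the beta subunits Psmb5, Psmb6 and Psmb7 hold the active sites of the constitutive form. The 19S cap, with its Psmc ATPases and Psmd subunits, recognises and unfolds the substrate. Interferon signalling induces Psmb8, Psmb9 and Psmb10, which take the places of Psmb5, Psmb6 and Psmb7 in newly built cores and favour the production of peptides for MHC class I. The PA28 activator, made of Psme1 and Psme2, is induced by the same signal, whereas Psme3 (PA28 gamma) and Psme4 (PA200) are other activators of the core.

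A few facts of the whole series bear on these genes. Array medians ran from 62.8 to 71.6 in signal. The summed signal of each cell type's list of defining markers was highest on that cell type's own arrays, but mesangial wild type array C had a summed podocyte marker signal of 3886 against 941 and 1089.9 in arrays A and B. On the same array the endothelial marker sum was 8379 against 3033 and 3418, the erythroid sum 7337 against 669 and 376, and the leukocyte sum 2082 against 1123 and 999.9. Mesangial mutant array B had a higher leukocyte sum still, 2758 against 1142 and 1077 on mutant arrays A and C. The mesangial marker sum was 6187 to 7031 in mutant and 8713 to 9639 in wild type mesangial arrays. The summed endothelial marker signal was 4531 to 6073 in wild type podocyte arrays and 828 to 2808 in mutant podocyte arrays. Cd2ap itself was not lower in the endothelial arrays labelled mutant, with 891, 966 and 920.4 against 839.8, 859 and 757 in wild type. In mesangial cells it read 829 ± 37.6 in mutants and 1027 ± 101 in wild type (SD, n = 3), and in podocytes 1498 ± 17.6 and 1775 ± 295 (SD, n = 3). Whether its probes lie in the altered part of the gene is not known, so every direction rests on the labels. In sorted cells analysed in bulk, more RNA per cell and a larger share of expressing cells cannot be told apart.

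Of the 47 genes, 44 reached a signal of 100 on at least 1 array, the minimum required here. The other 3 stayed below it everywhere. They were Psmb11, the catalytic subunit of the thymus proteasome, with a highest signal of 70.3, the testis subunit Psma8 with 50.6, and the assembly chaperone gene Psmg3 with 98.9. The clusters of Psma4, Psma5 and Psme2 also carry the symbol of a second gene (AY074887, Gm8394 and Psme2b-ps), so their signal may not come from 1 gene alone. Psma3, Psma5, Psmb3, Psmc1, Psmd13, Psmd2, Psmd7 and Psme2 had over 1 cluster.

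Mutant endothelial cells had more Psmb8 and Psmb9 than wild type. Psmb8, which carries the chymotrypsin-like activity of the immunoproteasome, gave signals of 575, 661 and 604 on the mutant arrays and 267, 220.0 and 197 on the wild type arrays. Psmb9, which replaces the caspase-like subunit Psmb6, gave 1147, 1640.2 and 1389.8 against 889, 625 and 707. For both genes the lowest mutant array exceeded the highest wild type array. Psmb10, with trypsin-like activity, gave 255, 339 and 248 against 211, 184 and 201, which do not overlap either, but by a smaller step.

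Psmb8 was 1.44 ± 0.13 higher on the log2 scale, a 2.70-fold difference, with an adjusted p of 0.0033 (limma, Benjamini-Hochberg over 11330 clusters). It ranked 38 from the top among these clusters. Psmb9 was 0.91 ± 0.17 higher, 1.88-fold, at rank 153 with an adjusted p of 0.052. Psmb10 was 0.49 ± 0.14 higher with an adjusted p of 0.14, and its 1.40-fold difference stayed below the screen. The screen used throughout asks for a fold change over 1.5 together with p under 0.05 before adjustment, and genes past it are said to be called. It called 2 of the 44 tested genes higher, Psmb8 and Psmb9, and none lower, where 2.96% of all clusters were called higher and 0.865% lower. With an adjusted p under 0.05 as the rule, Psmb8 was the 1 gene left, and 1.21% of clusters were higher.

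The constitutive subunits that these 3 replace were nearly level. Psmb5 read 394, 397 and 400.2 on mutant endothelial arrays and 438, 333 and 354 on wild type arrays, a difference of 0.09 ± 0.12. Psmb6 read 701, 758 and 598 against 735, 556 and 680.2, a difference of 0.06 ± 0.14. Psmb7 read 634, 683 and 583 against 646, 496 and 571, a difference of 0.15 ± 0.12. In all 3 the genotypes overlapped, in contrast to the immunoproteasome genes.

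**Figure D1:**
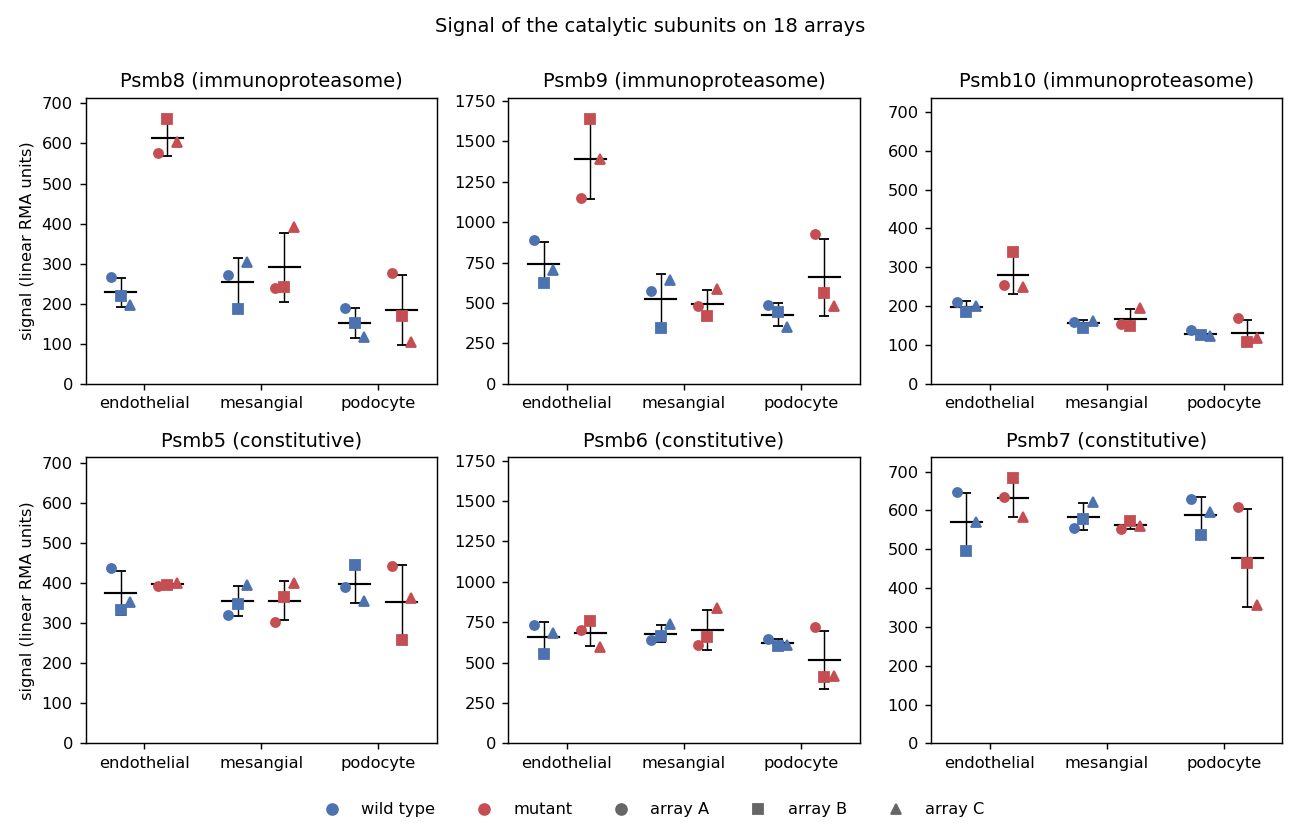
Signal in linear RMA units of Psmb8, Psmb9 and Psmb10 (top) and of Psmb5, Psmb6 and Psmb7 (bottom) on each array, by cell type; blue points are wild type, red points mutant, symbols mark arrays A, B and C, black lines the mean and bars the SD (n = 3). The 3 mutant endothelial arrays lie above the wild type arrays for the genes of the top row, from 575 to 661 against 197 to 267 for Psmb8, and mix with them in the bottom row.

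The other proteasome genes moved little in endothelial cells, though mostly to the same side. Among the 41 tested genes outside the immunoproteasome, 37 had a positive difference and the median was 0.19, where 64.9% of all clusters were positive with a median of 0.07. None of the 41 was called, and 9 had an unadjusted p under 0.05 (limma), all higher, where 13% of all clusters did so. The 7 tested 20S alpha genes had a median of 0.19, the 7 constitutive beta genes 0.15, the 6 ATPases 0.22 and the 14 other cap subunits 0.19. The genotypes did not overlap, with the mutants higher, in 15 of the 44 tested genes and in 17.7% of all clusters. The lowest differences were those of Psmd10 (−0.10 ± 0.14), Psme3 (−0.06 ± 0.12) and Psmd14 (−0.01 ± 0.10).

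Both PA28 activator genes had every mutant endothelial array above all wild type arrays, though neither passed the screen. Psme1 gave 1339, 1518 and 1103 on mutant endothelial arrays and 1094, 926 and 995 on wild type arrays. Psme2 gave 323, 423 and 289.8 against 258, 215 and 225. Psme1 differed by 0.38 ± 0.13 (adjusted p = 0.20, limma) and Psme2 by 0.55 ± 0.15 (adjusted p = 0.13). Psme2 was called without mutant array A, mutant array C or wild type array A, or with array medians subtracted. The second cluster of Psme2 gave 0.45 ± 0.13. Psme3 and Psme4, which interferon is not known for inducing, stood at −0.06 and 0.02. Outside these groups the largest difference was that of Psmd13, a cap subunit, with 279, 236 and 229 against 187, 167 and 185, or 0.46 ± 0.11 (adjusted p = 0.092).

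**Figure D2:**
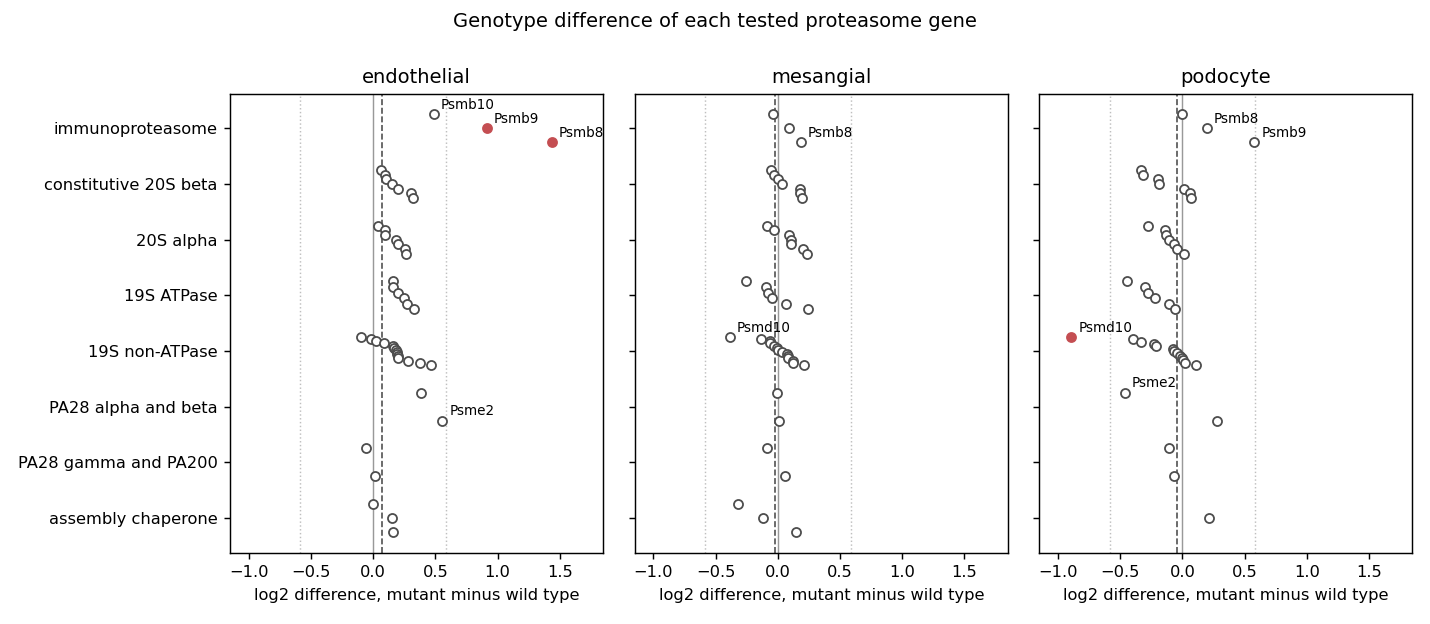
Log2 difference, mutant minus wild type, of each tested proteasome gene by subgroup in the 3 cell types; red points are genes called by the screen, dotted lines mark the 1.5-fold threshold and the dashed line the median of all transcript clusters. Psmb8 and Psmb9 stand to the right in endothelial cells, Psmd10 to the left in podocytes, and the mesangial values stay between −0.39 and 0.24.

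Some genes that work with the immunoproteasome in antigen presentation were called in the same arrays. Of 11 genes for peptide loading and its regulation, 5 were called higher in mutant endothelial cells and none lower, where 2.96% and 0.865% of all clusters were. Tap1, a subunit of the transporter that carries proteasome products into the endoplasmic reticulum, gave 219.9, 248 and 188 against 110.5, 88.4 and 101, a difference of 1.13 ± 0.13 (adjusted p = 0.0083, limma). Tap2, the other subunit, differed by 0.75 ± 0.12 (adjusted p = 0.032). Erap1, which trims peptides, differed by 0.70 ± 0.12 (adjusted p = 0.034). The loading factor Tapbp (0.65 ± 0.18) and the interferon regulatory factor Irf1 (0.60 ± 0.14) were called with adjusted p-values of 0.14 and 0.092. The other 6 genes were not called. They were Tapbpl (0.45 ± 0.11), the class I light chain B2m (0.07 ± 0.08), the chaperones Canx (−0.06 ± 0.14), Pdia3 (−0.11 ± 0.13) and Calr (−0.25 ± 0.16), and Nlrc5, an activator of class I genes. Nlrc5 was lower without overlap, at −0.33 ± 0.11 (adjusted p = 0.19). These genes were listed with earlier results of these data known.

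Of 21 cofactors and regulators of the proteasome on the array, 20 were tested in endothelial cells, 19 in mesangial cells and 20 in podocytes, and none was called. The screen called 2.96% of all clusters higher and 0.865% lower in endothelial cells, 2.08% and 3.12% in mesangial cells and 1.26% and 4.34% in podocytes. At an unadjusted p under 0.05 (limma), 2 were higher in endothelial cells, where 13% of all clusters were, 2 were lower in mesangial cells, where 12.9% were, and 1 was lower in podocytes, where 10.9% were. The list holds Pomp, which assembles the core, Nfe2l1, which drives transcription of subunit genes, Psmf1, Adrm1, Uchl5, Usp14 and ubiquitin genes. The differences of the 20 tested in endothelial cells ran from −0.24 to 0.28.

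The promoters of Psmb8 and Psmb9 lie in the MHC region of chromosome 17, where RefSeq orders the genes Psmb9, Tap1, Psmb8 and Tap2. They are shown because both genes, and both Tap neighbours, were called in endothelial cells. Psmb9 and Tap1 start 225 bases apart in opposite directions and share the stretch between them. The sequences are from RefSeq (GRCm38.p6), whereas the array annotation uses mm9, and each is read in the direction of the named proteasome gene. Capitals mark a match to TTCNNNGAA, the letters of a gamma-activated site.
Psmb8, 250 bases before the start, chr17:34197945-34198194 (+): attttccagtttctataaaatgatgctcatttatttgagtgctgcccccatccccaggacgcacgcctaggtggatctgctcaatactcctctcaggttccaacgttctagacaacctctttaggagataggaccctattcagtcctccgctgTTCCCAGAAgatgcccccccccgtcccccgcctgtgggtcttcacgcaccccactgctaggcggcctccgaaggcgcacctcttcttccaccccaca
Psmb9 and Tap1, between the starts, chr17:34187331-34187555 (−): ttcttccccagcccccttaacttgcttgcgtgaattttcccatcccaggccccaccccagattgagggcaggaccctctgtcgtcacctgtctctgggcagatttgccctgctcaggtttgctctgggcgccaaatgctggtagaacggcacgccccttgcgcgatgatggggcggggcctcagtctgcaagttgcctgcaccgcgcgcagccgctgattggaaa

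The match before Psmb8 spans positions −97 to −89 from the start. Among the 39 proteasome genes with a promoter in the table, the gamma-activated letters occurred within 250 bases before the start in 2, Psmb8 and Psmg1, and in 8.13% of all genes. The letters of an interferon-stimulated response element, GAAA and GAAA with 2 bases of any kind between them, occurred in 3, Psmb3, Psmd4 and Psmd9, and in 3.46% of all genes. Those of an NF-kB site, GGGA and TTCC with 2 bases between them, occurred in Psme4 alone and in 1.36% of genes. The letters TGACNNNGC of an antioxidant response element occurred in 5 (Psmb5, Psmb6, Psmc6, Psmd12 and Psmd9) and in 11.5% of genes. Both strands were searched, the motifs were not made exclusive of each other, and a match is a description of letters, not of binding. None of the 4 motifs was found before Psmb9 or Psmb10 in this window.

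In mesangial cells the immunoproteasome genes did not separate by genotype. Psmb8 gave 239.6, 241 and 391 on the mutant arrays and 272, 186 and 303 on the wild type arrays. Psmb9 gave 481, 421 and 588 against 576, 347 and 645. Psmb10 gave 154, 148 and 196 against 160.3, 145 and 161. The genotypes overlapped in all 3, with differences of 0.18 ± 0.25, −0.04 ± 0.25 and 0.09 ± 0.13. Without wild type array C, which carried endothelial, podocyte and erythroid marker signal, Psmb8 stood at 0.33 and Psmb9 at 0.14, and neither was called. Without mutant array B, which had the highest leukocyte sum of the mesangial arrays, Psmb9 stood at 0.07. The part of other cells in the mesangial differences was not tested.

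None of the 44 tested proteasome genes was called in mesangial cells in either direction, where 2.08% of all clusters were called higher and 3.12% lower. At an unadjusted p under 0.05, 1 gene was higher and 1 lower, where 8.82% and 12.9% of clusters were. Psmc2, an ATPase of the cap, gave 518, 558 and 614 on mutant arrays and 471, 492 and 461 on wild type arrays, a difference of 0.24 ± 0.09 (adjusted p = 0.20, limma). Psmd10, or gankyrin, a chaperone of cap assembly, gave 568, 511 and 614 against 736, 745 and 727, a difference of −0.39 ± 0.09 (adjusted p = 0.080). Next to these in size came the alpha subunit Psma5 (0.23 ± 0.13) and the cap subunit Psmd3 (0.21 ± 0.11) on the higher side. On the lower side they were the assembly chaperone gene Psmg1 (−0.32 ± 0.24) and the ATPase Psmc5 (−0.25 ± 0.12), and their adjusted p-values ran from 0.29 to 0.49. The median over the 44 genes was 0.02, against −0.02 over all clusters. Leaving out wild type array A gave 1 call, Psmg1 lower. None of the 10 tested peptide loading genes was called here (2 were lower and none higher at an unadjusted p under 0.05, limma), and Tap1 stood at 0.25 ± 0.20.

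In podocytes the values of the immunoproteasome genes depended on the array. Psmb8 gave 278, 169.7 and 105 on mutant arrays A, B and C and 189, 151 and 116 on the wild type arrays. Psmb9 gave 928, 562 and 483 against 486, 447 and 349. Psmb10 gave 169, 107 and 118 against 137, 126 and 123. Mutant array A was the highest of the 6 arrays for all 3 genes, and the genotypes overlapped in each, for Psmb9 by 1 pair of arrays.

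None of the 3 was called. Psmb9 differed by 0.58 ± 0.26, 1.49-fold, with an adjusted p of 0.36 (limma over 12113 clusters). It was called without mutant array C (0.77) or after quantile normalization was applied again (0.70), and stood at 0.30 without mutant array A. Psmb8 differed by 0.19 ± 0.35, and by −0.16 without mutant array A. Psmb10 stood at 0.00 ± 0.19.

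The screen called no proteasome gene higher and 1 lower in mutant podocytes, where 1.26% of all clusters were higher and 4.34% lower. None was higher at an unadjusted p under 0.05 (limma) either, where 3.39% of clusters were. Of the 41 tested genes 11 had a positive difference, against 43.8% of all clusters, and 5 were lower without overlap (Psmb2, Psmd1, Psmd10, Psmd14 and Psmd6, named here once their values were seen), against 14.3%. The 1 gene was Psmd10, with 299.6, 178 and 355 on mutant arrays and 488, 435 and 574 on wild type arrays. The genotypes did not overlap, and the difference was −0.90 ± 0.26 with an adjusted p of 0.21 (limma). Psmd10 is thus the gene with the lowest difference of the tested proteasome genes in all 3 cell types, although only the podocyte difference was called. In endothelial cells it gave 541, 689 and 522 on mutant arrays and 679.9, 552 and 640.3 on wild type arrays, which overlap. It lies on the X chromosome, and its podocyte difference was −0.61 over the arrays without signal of Y-linked genes.

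Most proteasome genes outside the immunoproteasome lay below the wild type mean on mutant podocyte arrays B and C. Among the 41 genes outside the immunoproteasome that reached the minimum on any array, the median deviation from the wild type mean was 0.01 on mutant array A, −0.21 on B and −0.24 on C. On these arrays 16, 31 and 35 of the 41 lay below it, against 52.7%, 56.6% and 57.3% of all clusters. The medians over all clusters were −0.02, −0.06 and −0.07 on the same arrays. The immunoproteasome genes had medians of 0.90, 0.19 and −0.13 on arrays A, B and C, above the other proteasome genes on each array. The summed endothelial marker signal followed the same order, with 2808 on array A, 1252 on B and 828 on C, all below wild type. The smooth muscle and juxtaglomerular sum was 2970.2, 2374 and 1022 on arrays A, B and C, all above the wild type range of 766 to 783. The mesangial sum was 2607, 2512 and 945, below the wild type range of 2899 to 3736. The erythroid sum was 5479.8 on A, 807 on B and 328 on C, against 3063 to 4069. The summed leukocyte signal was 1524, 1107 and 1123 on these arrays and 1178 to 1612 on the wild type arrays. In wild type podocytes, where the endothelial sum was 4531 to 6073, Psmb9 stayed between 349 and 486. The part of these other cells in the podocyte values was not tested.

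Without mutant array A, 3 genes were called lower in podocytes, Psmd10, Psmc2 and Psme2, and so were 8.61% of all clusters. Psme2 then differed by −0.99 (adjusted p = 0.028, limma), with both remaining mutant arrays below the minimum of 100. Over all arrays it had stood at −0.46 ± 0.40. Its signals were 272, 93.0 and 87.8 on the mutant arrays and 198, 175 and 169 on the wild type arrays. Its second cluster gave 223, 93.8 and 131 against 149, 107 and 146, or 0.07 ± 0.31, so the clusters disagree on the direction. Psme1 stood at 0.28 ± 0.18 and Psmg1 at 0.21 ± 0.19, the highest differences after that of Psmb9. Psmc2 gave 537, 361 and 309 on mutant arrays and 555, 505 and 538 on wild type arrays, or −0.44 ± 0.21 over all arrays. Of the 11 peptide loading genes, 1 was called higher in mutant podocytes, where 1.26% of all clusters were, and none lower, where 4.34% were. This was Tap1 (0.84 ± 0.19, adjusted p = 0.15, limma), which lay below the minimum of 100 on the wild type arrays and was tested because of its mutant signals. Pdia3 (−0.52 ± 0.15, adjusted p = 0.21), Calr (−0.39 ± 0.20, adjusted p = 0.41) and Canx (−0.25 ± 0.12, adjusted p = 0.38) were lower without overlap. Tapbp (0.58 ± 0.17, adjusted p = 0.21, limma) and Tapbpl (0.39 ± 0.18, adjusted p = 0.38) were higher without overlap. Tapbpl, like Tap1, lay below 100 on the wild type arrays. Of all clusters, 14.3% were lower and 6.97% higher without overlap. Tap1 gave 172, 117 and 115 on mutant arrays and at most 81.6 on wild type arrays, without overlap.

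**Figure D3:**
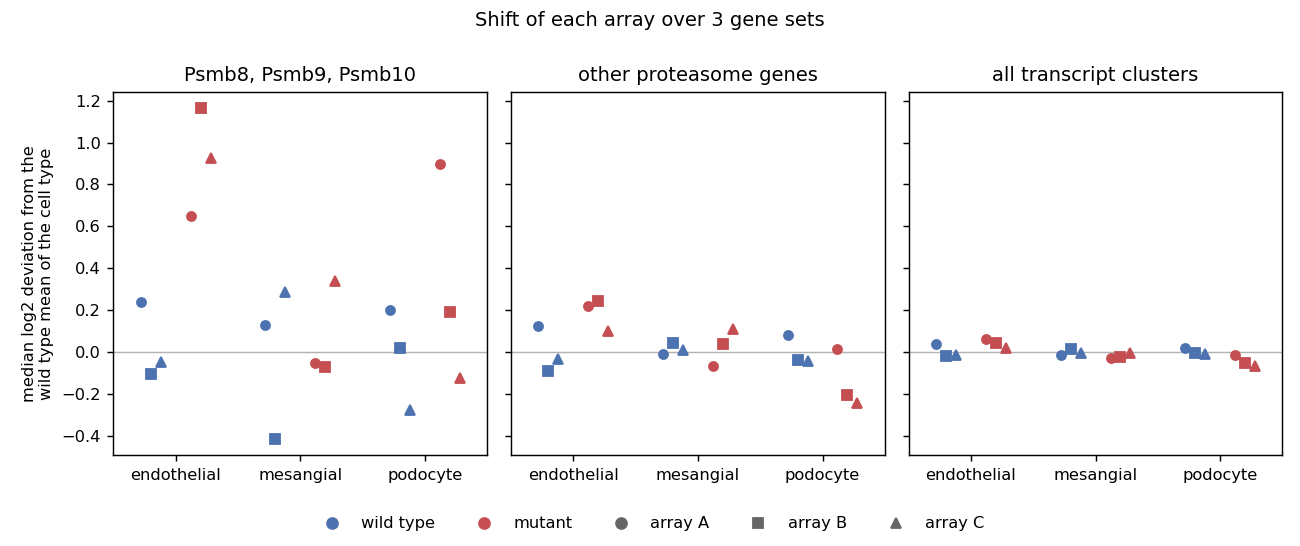
Median log2 deviation of each array from the wild type mean of its cell type, over Psmb8, Psmb9 and Psmb10 (left), over the 41 other proteasome genes that reached the signal minimum (middle) and over all transcript clusters that reached it (right); blue is wild type, red mutant, and symbols mark arrays A, B and C. Mutant podocyte arrays B and C lie at −0.21 and −0.24 in the middle panel, and the mutant endothelial arrays lie between 0.65 and 1.16 in the left panel.

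To ask whether the immunoproteasome subunits changed apart from the subunits they replace, the log2 difference of each pair was formed within every array. Only its change between genotypes was read, since the levels of 2 probe sets are not comparable. In endothelial cells Psmb8 moved against Psmb5 by 1.26, 1.46 and 1.31 on the mutant arrays, relative to the wild type mean, with wild type arrays from −0.12 to 0.12. Psmb9 moved against Psmb6 by 0.54, 0.95 and 1.05, and Psmb10 against Psmb7 by 0.20, 0.51 and 0.28. The mean changes were 1.34, 0.85 and 0.33. In each pair all mutant arrays lay above all wild type arrays, which gives an exact permutation p of 0.1, the smallest that 3 against 3 allows.

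In podocytes the counterparts had lower means in mutants, so a pair's change there is not that of the immunoproteasome gene alone. Psmb5 read 442, 257 and 362 on mutant podocyte arrays and 391, 446 and 354 on wild type arrays, a difference of −0.20 ± 0.21. Psmb6 read 720.0, 414 and 414 against 647, 604 and 609, a difference of −0.32 ± 0.22. Psmb7 read 610.1, 464 and 357 against 629, 538 and 596, a difference of −0.33 ± 0.20. The genotypes overlapped in all 3 and none was called. Psmb9 moved against Psmb6 by 0.92, 0.99 and 0.77 on the mutant arrays, with wild type arrays from −0.25 to 0.14, a mean change of 0.90 (exact permutation p = 0.1, the smallest possible), of which Psmb9 itself contributed 0.58. All 3 mutant arrays lay together here, whereas their Psmb9 signals alone did not. Psmb10 against Psmb7 changed by 0.33 (exact p = 0.2), while Psmb10 itself stood at 0.00, and Psmb8 against Psmb5 by 0.39 (exact p = 0.4), with mutant array C below the wild type mean. Leaving out 1 array moved the Psmb8 pair between 0.18 and 0.78 and the Psmb10 pair between 0.20 and 0.46. With the mean of the constitutive beta genes as the counterpart, the podocyte change of Psmb9 was 0.71 and that of Psmb10 0.13. In mesangial cells the changes of Psmb8, Psmb9 and Psmb10 against their counterparts were 0.18, −0.08 and 0.14, with exact p-values of 0.6, 0.8 and 0.6.

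Over all 3 cell types, with genotype labels permuted within each cell type, the mean change was 0.64 for Psmb8 (exact two-sided permutation p = 0.012, adjusted over the 3 pairs 0.012). It was 0.56 for Psmb9 (exact p = 0.0065, adjusted 0.00975) and 0.27 for Psmb10 (exact p = 0.0040, adjusted 0.00975). The podocyte part of these means holds the lower values of the counterparts. The pairs were chosen with earlier results known. Over the 12 arrays without Y-linked signal the changes were 0.53, 0.54 and 0.25 with exact p-values of 0.094, 0.073 and 0.073, where 96 arrangements allow no p below 0.021. In endothelial and mesangial cells this choice leaves a lone array of a genotype, with 4 arrangements each, so these p-values rest partly on single arrays. The mesangial changes were then −0.08 for Psmb8, −0.35 for Psmb9 and 0.02 for Psmb10.

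**Figure D4:**
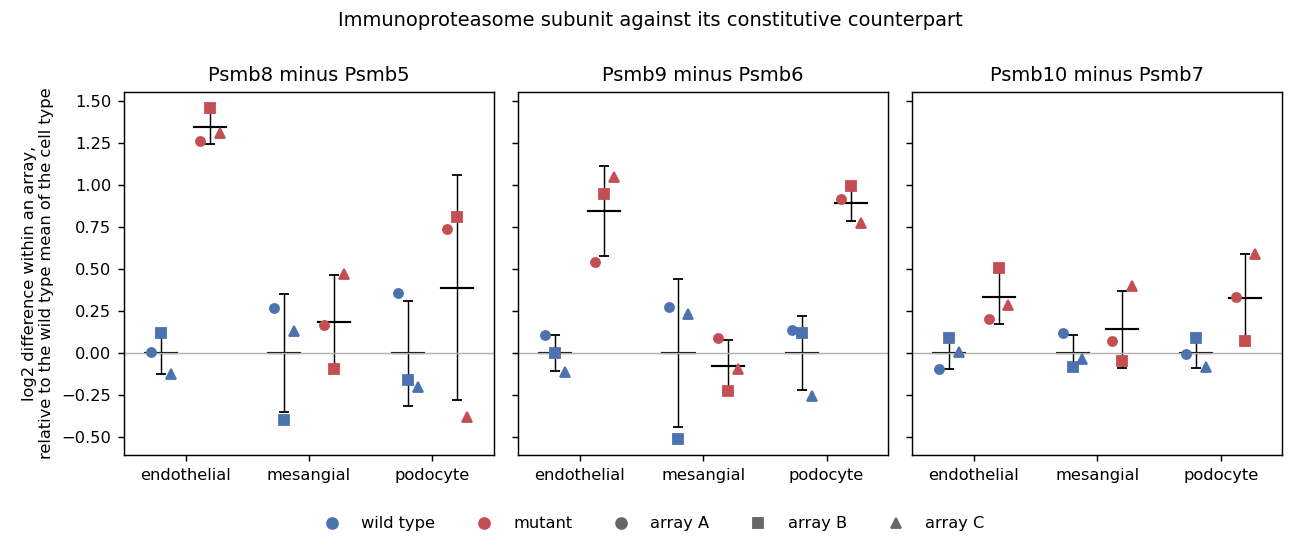
Log2 difference between each immunoproteasome subunit and its constitutive counterpart within an array, relative to the wild type mean of the cell type; blue is wild type, red mutant, symbols mark arrays A, B and C, black lines the mean and bars the SD (n = 3). The mutant endothelial arrays lie above the wild type arrays in the 3 panels, and the mutant podocyte arrays do so for Psmb9 against Psmb6, at 0.77 to 0.99.

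Whether the genotype effect itself differed between cell types was tested with interaction contrasts over all 18 arrays. If the mesangial controls carry 1 mutant allele, cell type and control genotype cannot be told apart in the contrasts with mesangial cells. The effect on Psmb8 was 1.25 ± 0.42 larger in endothelial than in mesangial cells (adjusted p = 0.16, limma) and 1.24 ± 0.42 larger than in podocytes (adjusted p = 0.10). For Psmb9 the first of these was 0.95 ± 0.36 (adjusted p = 0.21) and the second 0.33 ± 0.36 (adjusted p = 0.59), which ran from 0.14 to 0.61 with 1 array left out. No proteasome gene had an adjusted p under 0.05 in any of the 3 interaction contrasts, where 1.07%, 2.11% and 0.717% of clusters did (endothelial minus mesangial, endothelial minus podocyte and podocyte minus mesangial). At an unadjusted p under 0.05 (limma), 6 of the 44 tested genes were higher in the first, 17 higher in the second and 3 lower in the third. Of all clusters, 11%, 16.8% and 7.39% were.

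By the screen applied to the interactions, Psmb8 and Psmb9, 2 of the 44 tested genes, were called larger in endothelial than in mesangial cells, where 5.14% of clusters were. Psmb8, Psmc2, Psmd10 and Psme2, 4 of the 44, were called larger in endothelial cells than in podocytes, where 8.71% of clusters were. These counts are near the shares over all clusters. For Psme2 this held for the brighter cluster (1.02), and the dimmer cluster gave 0.38 ± 0.33 and was not called. The clusters of Psmd7 disagreed too. Its dimmer cluster was called in this contrast (0.68 ± 0.22), whereas the brighter cluster used here stood at −0.09 ± 0.15. Psmc2, 1 of the 44, was also called lower in podocytes than in mesangial cells (−0.69 ± 0.24, adjusted p = 0.24, limma), where 3.38% were. Without podocyte mutant array A, the endothelial minus podocyte difference reached an adjusted p of 0.014 (limma) for Psmb8 (1.59) and 0.032 for Psmb10 (0.68). That array was the highest podocyte array for both genes, so leaving it out had to enlarge these differences. With 1 array left out, the Psmb8 difference ran from 0.89 to 1.59 and the Psmb10 difference from 0.34 to 0.68. The interaction contrasts share the endothelial or podocyte arrays with each other.

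Some markers of other cells and the sex of the mice also differed between the endothelial groups. The summed signal of 18 leukocyte markers was 1147 to 1843 on the mutant arrays and 1015 to 1202 on the wild type arrays, highest on mutant array A, and 13 and 17 of the 18 markers stayed below 100 on all arrays of the 2 groups. Psmb8 (575) and Psmb9 (1147) were lowest of the mutants on that array A, and Psmb10 (255) lay between those on B and C. The erythroid sum was 1323 to 1885 on the mutant arrays and 1457 to 4009 on the wild type arrays. Both the leukocyte and the erythroid sums overlapped between the genotypes, but some single leukocyte markers did not. Cd14 gave 169, 89.8 and 132 on the mutant arrays against 70.3, 68.3 and 61.5 on the wild type arrays. Cd52, Laptm5 and Emr1, all below 100, were also higher without overlap, and Cd3e and Cd79a, also below 100, were lower without overlap. The part of leukocytes and erythroid cells in the endothelial differences was not tested. The Y-linked gene Ddx3y gave 695 and 772 on endothelial mutant arrays A and B and 30.7 on C, against 32.7 to 33.0 on the wild type arrays. Over the arrays without this signal, mutant C against the 3 wild type arrays, Psmb8 differed by 1.41 and Psmb9 by 0.92, and both were called (adjusted p = 0.085 and 0.25, limma, with the lone mutant array taken to vary like the wild type arrays).

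Levels across cell types were compared on the 9 wild type arrays. The mesangial ones may carry 1 mutant allele, so cell type and control genotype may be mixed in contrasts with them. The immunoproteasome genes were lowest in podocytes. Psmb8 averaged 152 ± 36.4 in podocytes, 228 ± 35.8 in endothelial cells and 254 ± 60.4 in mesangial cells (SD, n = 3). Psmb9 averaged 427 ± 70.6, 740.3 ± 135 and 523 ± 156 in the same order, and Psmb10 129 ± 7.51, 199 ± 13.7 and 155 ± 9.23. By these means the top position differed, with endothelial cells highest for Psmb9 and Psmb10 and mesangial cells for Psmb8. The Psmb8 order was not firm. Leaving out 1 array moved its endothelial minus mesangial difference between −0.34 and 0.0097, the latter without mesangial array C.

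Against endothelial cells, podocytes were lower by 0.61 ± 0.22 for Psmb8 (adjusted p = 0.054, limma), 0.79 ± 0.23 for Psmb9 (adjusted p = 0.023) and 0.63 ± 0.09 for Psmb10 (adjusted p = 0.00056), and all 3 were called. Psma5 (adjusted p = 0.0033), Psma7 (adjusted p = 0.0015) and Psmd5 were called lower too, 6 of 44 genes, where 12% of all clusters were. Psma5, in the alpha ring, gave 498, 363 and 445 in podocytes and 759.6, 679 and 654 in endothelial cells, a difference of −0.69 ± 0.14. Psma7, also in the alpha ring, gave 1152, 911 and 1007 against 1562, 1459 and 1587, a difference of −0.59 ± 0.10. Psmd5, a chaperone of cap assembly, stayed below the minimum in podocytes, with at most 85.2 on the podocyte arrays against 162, 136 and 97.9 in endothelial cells, and entered the test through the arrays of the other cell types. None of the 3 overlapped between these cell types. Without endothelial wild type array A, 2 calls were left, Psma5 and Psmb9. None was called higher, where 10% of clusters were. By an adjusted p under 0.05, 13 of the 44 were lower, where 21.9% of clusters were. Beside Psma5, Psma7, Psmb9, Psmb10 and Psmd5 these were Psma3, Psma6, Psmb1, Psmd7, Psmd11, Psme1, Psme2 and Psmg2, the largest difference being −0.57 (Psmb1). Psmg2, like Psmd5, was below the minimum on the 3 podocyte arrays and entered the test through the other cell types. Psme3 had an adjusted p of 0.038 on the higher side, at 0.35 ± 0.12, without reaching the fold.

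Against mesangial cells, podocytes were called lower in 2 of 44 genes, Psmb8 and Psme2, where 9.79% of clusters were, and none higher, where 6.16% were. By an adjusted p under 0.05, 11 were lower, where 17% of clusters were. These were the alpha genes Psma1, Psma2, Psma3, Psma5 and Psma6, the beta genes Psmb1 and Psmb8, the cap genes Psmc6 and Psmd10, and Psme1 and Psme2. Apart from Psmb8 and Psme2 they lay between −0.57 (Psmd10) and −0.34 (Psma1). Psmb8 was 0.74 ± 0.22 lower (adjusted p = 0.032, limma) and Psmb9 0.26 ± 0.23 lower (adjusted p = 0.44). Leaving out 1 array moved the Psmb9 difference between −0.53 and −0.08. Without podocyte wild type array C, Psmb8 was not called. All 7 tested alpha ring genes had negative differences in both contrasts, which share the podocyte arrays, with medians of −0.35 and −0.37, and so did the 3 immunoproteasome genes and both PA28 genes. Over all clusters 46.2% and 47.9% were positive. Psma3 averaged 1100.3 ± 22.5 in podocytes, 1619 ± 22.3 in mesangial and 1578 ± 17.1 in endothelial cells (SD, n = 3). It was 0.56 ± 0.07 and 0.52 ± 0.07 lower in podocytes, with adjusted p-values of 0.00039 and 0.00041, and just missed the fold threshold. Its other 2 clusters gave −0.56 and −0.59 against mesangial cells, and the second of them was called. The catalytic Psmb5, Psmb6 and Psmb7 differed by at most 0.16 in size in both contrasts. Since the wild type podocyte arrays hold endothelial marker signal and mesangial array C holds endothelial (8379), erythroid (7337) and podocyte (3886) marker signal, these contrasts compare sorted fractions, and the part of the admixture was not tested.

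Endothelial and mesangial cells differed in fewer of these genes. Psmb10 was 0.36 ± 0.09 higher in endothelial cells (adjusted p = 0.016, limma), Psma7 0.44 ± 0.10 and Psmd11 0.44 ± 0.08, and none of these passed the fold threshold. Psmb9 stood at 0.54 ± 0.23 and was called without endothelial array B, mesangial array A or mesangial array C (0.71 without the last). Psme3 was lower at −0.42 ± 0.12 (adjusted p = 0.021). By an adjusted p under 0.05, 3 genes were higher and 2 lower, where 15.9% and 16.1% of clusters were. The 1 call of 44 was Psme2, lower by 1.02 ± 0.10 (adjusted p = 6.8e-05), where 9.89% of clusters were called lower and 8.22% higher.

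The Psme2 levels depended on which of its clusters was read. The brighter cluster averaged 469.8 ± 26.7 in wild type mesangial cells, 233 ± 22.6 in endothelial cells and 180.4 ± 15.2 in podocytes (SD, n = 3). The dimmer cluster averaged 212 ± 4.62, 189 ± 4.96 and 134 ± 23.5. Podocytes were lower than mesangial cells on both, by 1.38 ± 0.10 and 0.67 ± 0.12, and both were called. Endothelial cells were lower by 1.02 on the brighter cluster and by 0.16 ± 0.12 on the dimmer cluster, which was not called. The brighter cluster is the one that shares its symbol with the pseudogene Psme2b-ps.

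**Figure D5:**
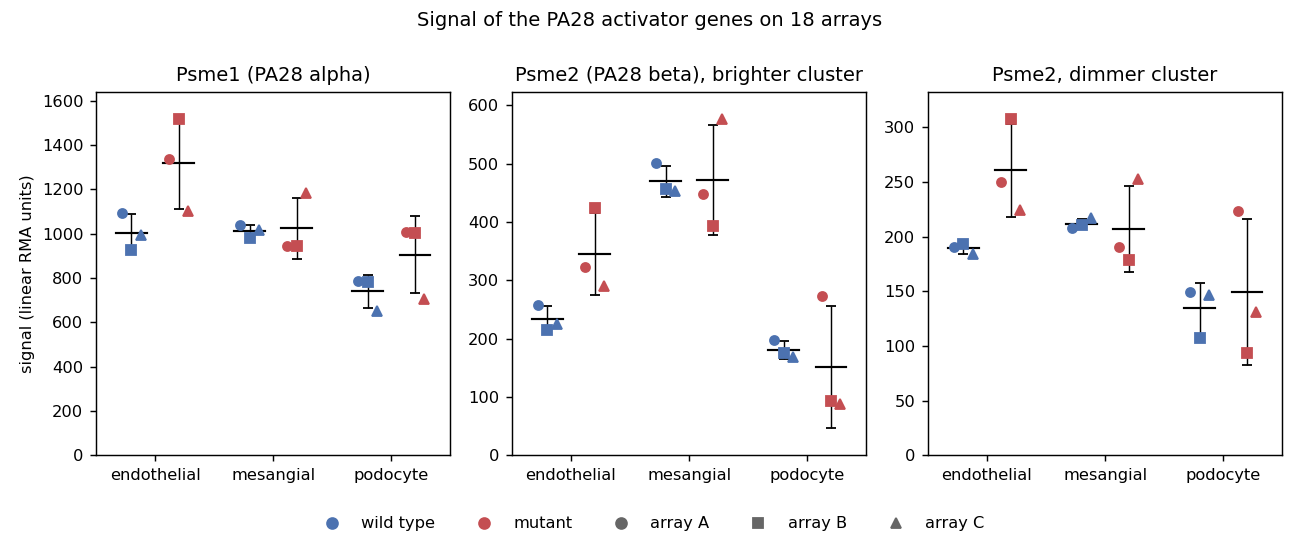
Signal in linear RMA units of Psme1 and of both clusters of Psme2 on each array, by cell type; blue is wild type, red mutant, symbols mark arrays A, B and C, black lines the mean and bars the SD (n = 3). Mutant podocyte array A lies at 272 on the brighter Psme2 cluster and arrays B and C at 93.0 and 87.8, and the step between mesangial and endothelial wild type arrays appears on the brighter cluster.

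The 3 immunoproteasome genes varied together over the arrays. Pearson's r of log2 signal over 18 arrays was 0.83 for Psmb8 with Psmb9, 0.88 for Psmb8 with Psmb10 and 0.86 for Psmb9 with Psmb10. It was 0.31 for Psmb8 with Psmb5, 0.32 for Psmb9 with Psmb6 and 0.58 for Psmb10 with Psmb7. After each group's mean was removed, the first 3 were 0.89, 0.73 and 0.79 and the last 3 were 0.47, 0.70 and 0.64. These values describe arrays that share a normalization and fall into groups, and no p is given.

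Among the 11131 clusters that had 1 symbol and reached a signal of 100 on at least 1 array, the 5 most like Psmb8 by this measure were Pip5k1c (r = 0.93), Gbp6, Xaf1, Rnf213 and Rsad2. Those most like Psmb9 were Cd274 (r = 0.91), Tap1, Gbp4, Atp2b4 and Carhsp1. Those most like Psmb10 were Gbp4 (r = 0.97), Tmed5, H2-T24, Hfe and Aida. Gbp4 and Gbp6 are guanylate binding proteins, Rsad2 is an antiviral gene and Pip5k1c is a lipid kinase.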

How the data were processed

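RNA of sorted cells was amplified and hybridised to 18 Affymetrix Mouse Gene 1.0 ST arrays. The authors deposited 1 annotated table (mm9) with an intensity for each of 28856 transcript clusters on a linear scale, made by RMA of Expression Console per the labels. The other 18 value columns, normalized values of the same arrays, were not used. The series record names another array and tool. GeneSpring 12.6.1 was the authors' analysis software. The array number, 3 per group, limits the precision.

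Columns were assigned to groups by cell type, reporter and genotype. For each comparison, clusters with a signal of at least 100 on at least 1 of its arrays were fitted without covariates on the log2 scale in R 4.3.3 (limma 3.58.1, functions lmFit and eBayes). Adjusted p-values are Benjamini-Hochberg over all clusters of a comparison. Genotype fits used 6 arrays, cell type contrasts 9 and interactions 18. The screen and the signal minimum follow the authors' methods. The fit was tested on simulated data. Pairs were compared by exact permutation of array labels.

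Named were the catalytic subunits and their counterparts, the activators, every gene called, the 3 highest and 3 lowest per genotype comparison, genes with low, shared or several clusters, called partner genes and the most similar clusters. The uncalled peptide loading genes were named after their values were seen. The members, lists and tests were chosen with earlier results of these data known. Alternatives changed the minimum, the cluster rule, the normalization, the fit and the arrays. No RNA-seq was used, and some items are not reported here.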

Additional observations from a re-analysis of the deposited data

How the results depend on the processing

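The 3 arrays per group limit what can be called. No paired analysis was possible because the sample numbers differ between the groups compared and the columns carry none. The planned fit of the table's normalized columns was not run, since those columns were not used. With an adjusted p under 0.05 as the rule, 1 gene was higher in mutant endothelial cells and 0 were lower in podocytes, and a fold over 2 with a signal of 500 gave 1 and 0. After quantile normalization was applied again, 1 gene was called higher in mutant podocytes and 1 in wild type endothelial against mesangial cells. With array medians subtracted, 5 were lower in wild type podocytes than in mesangial cells. Leaving out 1 array at a time gave 0 to 1 call lower in mutant mesangial cells, 0 to 1 higher and 1 to 3 lower in mutant podocytes, 2 to 7 lower in wild type podocytes against endothelial cells and 0 to 1 higher in wild type endothelial against mesangial cells. In mutant endothelial cells Psmb8 stayed between 1.34 and 1.56 and Psmb9 between 0.79 and 1.05, both called each time. Over arrays without Y-linked signal, chosen after seeing the data, the changes of Psmb8, Psmb9 and Psmb10 against their counterparts were 0.53, 0.54 and 0.25 with larger p-values.

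Differences that turned sign were not called on either side, and the cause was not tested. Quantile normalization again gave 0.013 for Psmb9 and 0.052 for Psme2 in mesangial cells and 0.031 for Psmb10 in podocytes. Subtracted array medians gave −0.0073 for mesangial Psme1 and also for the podocyte minus mesangial effect on Psmb8. Arrays without Y-linked signal gave −0.029 for mesangial Psme1 and 0.18 for podocyte Psmb10. Leaving out 1 array at a time, the mesangial differences ran from −0.050 to 0.33 (Psmb8), −0.31 to 0.14 (Psmb9), −0.040 to 0.16 (Psmb10), −0.10 to 0.063 (Psme1) and −0.16 to 0.11 (Psme2). Those in podocytes ran from −0.16 to 0.54 (Psmb8) and −0.20 to 0.13 (Psmb10). Wild type endothelial minus mesangial Psmb8 ran from −0.34 to 0.0097. The podocyte minus mesangial effects ran from −0.34 to 0.36 (Psmb8) and −0.28 to 0.047 (Psmb10).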
